A study of Mus musculus with 5 samples.

Results

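The proteasome is the protease complex that degrades proteins marked with ubiquitin. Its genes were examined in forelimbs of mouse embryos with and without a conditional deletion of Prmt5. Members were taken by symbol (Psma, Psmb, Psmc, Psmd, Psme, Psmf or Psmg followed by a number). This gave 46 of 22653 genes with a row of their own, and in 42 of these 46 the mean of both genotypes reached 1 FPKM, the minimum level used here. FPKM is the number of fragments scaled to transcript length and library total. RNA was sequenced from 2 Prmt5cKO samples, of genotype Prx1Cre+/-;Prmt5c/c, and 3 samples labelled control, all forelimbs at E11.5 with 47 to 48 somites. Both groups had a mixed C57BL/6 and Swiss Webster background. Prx1Cre acts in the limb bud mesenchyme, while the whole forelimb was sampled, so ectoderm, vessels, blood and other cells that keep Prmt5 also contribute RNA. The sources used here do not say whether the controls carried Prx1Cre or a conditional Prmt5 allele, or how many embryos made up a sample.

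The complex has a barrel-shaped core particle, the 20S, made of outer alpha rings that guard the entrance and inner beta rings that hold the cutting sites. A 19S regulatory particle caps the barrel, binds and removes ubiquitin, and unfolds the substrate with a ring of ATPases. Some beta subunits can be exchanged for immunosubunits, which interferon induces and cells of the blood lineage express. Other activators can bind the barrel in place of the 19S, and dedicated chaperones assemble both particles.

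The authors give each gene 1 FPKM value per genotype, which joins the replicates. No SD can therefore be set beside a value, and sequencing depth is unknown. Prmt5, which encodes the deleted arginine methyltransferase, stood at 12.5 FPKM in Prmt5cKO and 40.9 FPKM in control, 30.6% of the control level. All 6 limb mesenchyme markers examined were at 19.9 FPKM or more in both genotypes. One of them, Pdgfra (a growth factor receptor gene in a row with Mir7025), fell, at 56.3 FPKM in Prmt5cKO and 108 FPKM in control. Prrx2, Twist1, Tbx5 and Msx1 did not pass and Prrx1 was not tested by the authors; these 5 lay between 86.5% and 125% of control. Of 6 rows of red cell markers, 3 fell (Alas2 and the rows shared by Hba-a1 and Hba-a2) and none rose. Of 6 endothelial markers, 1 fell (Cd34), none rose and 2 were not tested by the authors. Over all tested genes 4.83% rose and 19.3% fell. The part of these marker differences in the results below was not tested. Sex-linked transcripts also differed between the groups, with Xist at 0.392 FPKM in Prmt5cKO and 87.3 FPKM in control and the Y-linked Ddx3y at 21.8 FPKM in Prmt5cKO and 0.0840 FPKM in control. For any difference below, the sex of the embryos and their genotype cannot be told apart. In whole forelimbs, fewer cells of a type and less RNA per cell cannot be told apart either.

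Levels of the proteasome genes were nearly alike in both genotypes. Of the 42 members at or above the minimum level, 1 rose (Psmd3) and 3 fell (Psma7, Psme2 and Psmf1) at a q, the authors' adjusted p-value, under 0.05, while 38 did not pass. Over all 10617 tested genes at this level, 4.83% rose and 19.3% fell, beside 2.38% and 7.14% of the members. All 42 lay within 1.5-fold of a ratio of 1, between 75.9% and 127% of the control level. So did 94.4% of all genes at or above the minimum level, and 97.1% of those with a mean of at least 30 FPKM. At a q under 0.01 the counts were 0 risen and 1 fallen (Psma7), with 3.22% and 13.6% of all tested genes. With at least 1.5-fold as well as a q under 0.05 they were 0 and 0, with 1.59% and 6.81%. Whether the members change less often than other genes was not tested.

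The changed members sat in different parts of the complex. Psma7, an alpha subunit of the core, stood at 193 FPKM in Prmt5cKO and 254 FPKM in control, 75.9% of control. The authors' deposited table lists a log2 fold change of -0.40 at q = 0.0053. Psme2, which encodes the beta subunit of the PA28 activator, stood at 46.2 FPKM in Prmt5cKO and 60.4 FPKM in control; the authors' deposited table lists a log2 fold change of -0.39 at q = 0.0347. Psmf1, which encodes PI31, a protein that binds the core and inhibits it in vitro, stood at 8.08 FPKM in Prmt5cKO and 10.6 FPKM in control; the authors' deposited table lists a log2 fold change of -0.40 at q = 0.0473. These falls each took the transcript to about the same share of control, 75.9%, 76.5% and 76.0%. Psmd3, a subunit of the 19S lid, stood at 40.8 FPKM in Prmt5cKO and 32.2 FPKM in control; the authors' deposited table lists a log2 fold change of 0.34 at q = 0.0466. The q-values of Psmd3 and Psmf1 lay just inside the threshold. Outside it the smallest q was that of the ATPase gene Psmc3 (0.0933 in the authors' deposited table), at 153 FPKM in Prmt5cKO and 184 FPKM in control.

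These genes lie apart in the genome (GRCm38, GENCODE M21). Psma7 (180036374 to 180042433) and Psmf1 (151715812 to 151744186) are both on the minus strand of chromosome 2. Psme2 (chromosome 14, 55587441 to 55591113, minus strand) lies 1.07 Mb from Prmt5. Its neighbour Psme1 starts 1.06 Mb from Prmt5 and did not pass. Psmb5 and Psmb11 lie nearer to Prmt5, at 0.097 Mb and 0.104 Mb. The row that Psmb5 shares with Mir686 did not pass, and Psmb11 was below the minimum level. Psmd3 lies on the plus strand of chromosome 11 (98682554 to 98695979), and its exons overlap those of Gm12356 on the other strand. The sources used here do not say whether the counting used strand, so reads of Psmd3 and Gm12356 cannot be told apart.

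Promoter sequence just upstream of the start of the genes that fell is shown for comparison with that of Psmb6, a catalytic subunit gene whose level differed by under 2% between the genotypes (101.6% of control). The RefSeq table (GRCm38.p6) used here holds a promoter for 38 of the 46 members. Of the 250 bases before each start, the stretch free of annotated exons is printed 5′ to 3′ on the gene's strand, in lower case, with capitals where a searched motif matched. The stretches are chr2:180042465-180042508 (minus) for Psma7, chr14:55591114-55591351 (minus) for Psme2, chr2:151741311-151741560 (minus) for Psmf1 and chr11:70525107-70525356 (plus) for Psmb6. For Psma7, 206 bases were left out because an exon of the divergent gene Ss18l1 covers them. For Psme2, the last 12 bases before the start were left out because an annotated exon of Psme2 itself covers them. For Psmf1, GENCODE M21 also has a start further upstream, so this window lies inside the annotated gene.
Psma7: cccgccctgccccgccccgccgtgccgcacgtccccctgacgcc
Psme2: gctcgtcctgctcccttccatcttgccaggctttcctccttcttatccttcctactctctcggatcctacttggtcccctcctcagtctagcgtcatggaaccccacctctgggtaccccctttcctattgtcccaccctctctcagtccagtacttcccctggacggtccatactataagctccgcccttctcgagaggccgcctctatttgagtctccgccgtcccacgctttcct
Psmf1: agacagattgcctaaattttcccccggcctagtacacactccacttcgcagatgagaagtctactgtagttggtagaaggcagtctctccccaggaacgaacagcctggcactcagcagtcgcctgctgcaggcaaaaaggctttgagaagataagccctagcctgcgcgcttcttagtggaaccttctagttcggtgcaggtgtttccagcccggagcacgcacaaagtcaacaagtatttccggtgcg
Psmb6: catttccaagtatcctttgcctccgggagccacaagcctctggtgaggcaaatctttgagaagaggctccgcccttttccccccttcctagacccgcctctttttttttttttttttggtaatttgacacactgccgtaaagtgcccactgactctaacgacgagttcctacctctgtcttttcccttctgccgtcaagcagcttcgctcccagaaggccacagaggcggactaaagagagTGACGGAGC

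The motifs searched on both strands were TGANNNNGC, the core letters of the antioxidant response element that the proteasome regulators NFE2L1 and NFE2L2 bind, CCAAT, and TTCNNNGAA, the letters that STAT factors bind. In the printed stretches the one match was TGANNNNGC in Psmb6, in the last 9 bases before the start. Psma7 had a CCAAT from -196 to -192, within the part left out. Over all windows, TGANNNNGC was in 12 of 38 member promoters (31.6%) and in 35.1% of 27025 promoters. CCAAT was in 14 (36.8%) beside 34.5%, and TTCNNNGAA in 1 (2.63%) beside 7.14%. The shares among members for TGANNNNGC and CCAAT were thus near those of all promoters. Both motifs are short and matched in many promoters, so these shares cannot show whether working elements are more or less common among members. None of the 34 matches in member promoters overlapped another. A match is a stretch of letters and not a measured binding site.

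Among the members, transcripts of the core genes were the most abundant, which does not give the amount of the particle. The 13 core genes with rows of their own ranged from 91.1 to 270.0 FPKM in Prmt5cKO and from 95.6 to 301 FPKM in control. By their mean level they lay between percentiles 94.5 and 98.1 of all 11660 genes at or above 1 FPKM. Summed over these 13, the core stood at 2403 FPKM in Prmt5cKO and 2490.4 FPKM in control, 96.5% of control.

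Among the alpha genes, Psma7 was the highest in both genotypes. The alpha levels spanned 1.38-fold in Prmt5cKO, with Psma1 lowest at 140.3 FPKM. They spanned 1.93-fold in control, with Psma3 lowest at 132 FPKM. The narrower span in Prmt5cKO thus accompanied the fall of Psma7. Psma3 stood at 148 FPKM in Prmt5cKO and 132 FPKM in control, the largest excess among alpha genes, and did not pass. Psma4, at 156 FPKM in Prmt5cKO and 169 FPKM in control, did not pass either. The remaining alpha genes, Psma1, Psma2, Psma5 and Psma6, lay between 98.6% and 104.5% of control. The germ cell alpha subunit Psma8, which replaces Psma7 in the testis, did not reach the minimum level, with 0.451 FPKM in Prmt5cKO and 0.679 FPKM in control.

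None of the 6 beta genes passed the threshold, beside 4.83% risen and 19.3% fallen over all tested genes. Psmb4, a structural beta subunit, was the highest of all members, at 270.0 FPKM in Prmt5cKO and 301 FPKM in control. Psmb2, another non-catalytic subunit, was the lowest of the class at 91.1 FPKM in Prmt5cKO and 95.6 FPKM in control. The catalytic subunits sat near the top. Psmb6, with caspase-like activity, stood at 254 FPKM in Prmt5cKO and 249.8 FPKM in control. Psmb7, with trypsin-like activity, stood at 257 FPKM in Prmt5cKO and 255 FPKM in control. Both have annotated processed pseudogenes, so how reads were split between the copies is uncertain. The third catalytic gene, Psmb5, with chymotrypsin-like activity, shares a row with Mir686 and is not among the 46. That row stood at 163 FPKM in Prmt5cKO and 181 FPKM in control and did not pass. The structural Psmb1 and Psmb3 were at 98.5% and 97.3% of control.

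**Figure D1:**
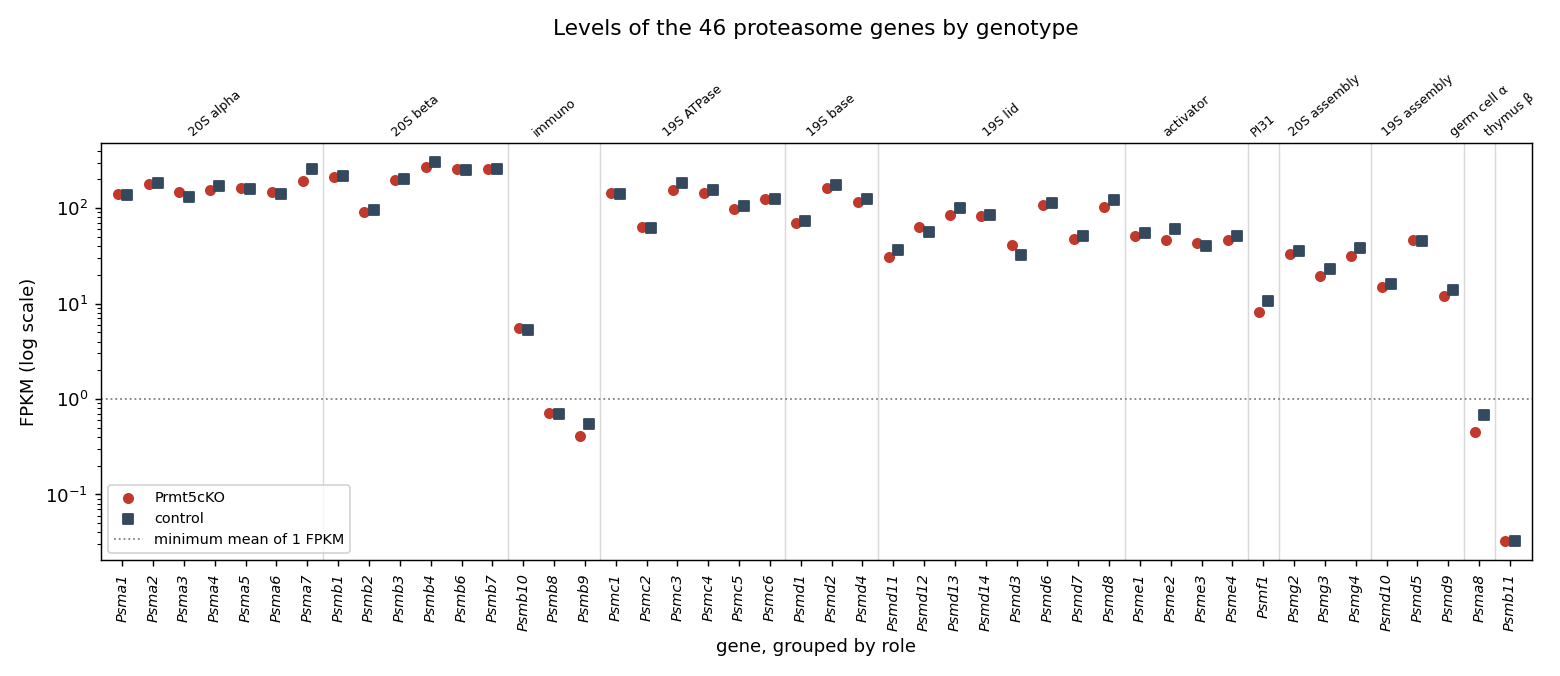
FPKM (log scale) of each of the 46 proteasome genes, grouped by role, with circles for Prmt5cKO and squares for control; each point is the authors' value over the replicates, so there are no error bars. Core and 19S genes lie between 30.7 and 301 FPKM, and Psmb8, Psmb9, Psma8 and Psmb11 lie below the dotted line at 1 FPKM in both genotypes.

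The immunosubunits were far below the subunits they replace. Psmb10, which replaces Psmb7, was the one above the minimum level, at 5.53 FPKM in Prmt5cKO and 5.31 FPKM in control. This was 2.15% of the Psmb7 level in Prmt5cKO and 2.08% in control. Psmb8, which replaces Psmb5, stood at 0.715 FPKM in Prmt5cKO and 0.697 FPKM in control, 0.439% of the row that holds Psmb5 in Prmt5cKO and 0.385% in control. Psmb9, which replaces Psmb6, stood at 0.414 FPKM in Prmt5cKO and 0.545 FPKM in control, 0.163% of Psmb6 in Prmt5cKO and 0.218% in control. None of the 3 passed the threshold in the authors' deposited table (q between 0.795 and 0.975). The thymus-specific Psmb11 was at 0.0322 FPKM in Prmt5cKO and 0.0323 FPKM in control. The 3 immunosubunits summed to 6.66 FPKM in Prmt5cKO and 6.55 FPKM in control, while transcripts of macrophages, a cell type that can express them, were higher in Prmt5cKO. Of 18 macrophage markers at or above the minimum level, 12 rose and none fell, beside 4.83% risen and 19.3% fallen over all tested genes. Summed over all 19 measured, these markers stood at 93.2 FPKM in Prmt5cKO and 50.7 FPKM in control; none was at 0, and their part in the immunosubunit levels was not tested. Exons of Psmb9 overlap those of Tap1 on the other strand. Tap1, which encodes a peptide transporter for antigen presentation, rose, at 3.71 FPKM in Prmt5cKO and 2.26 FPKM in control (q = 0.0281 in the authors' deposited table).

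The 19S genes also held close to control. Over all tested genes 4.83% rose and 19.3% fell. Of 17 members of the ATPase ring, base and lid, 1 rose, none fell and 16 did not pass. Their sum was 1634 FPKM in Prmt5cKO and 1743 FPKM in control, 93.8% of control. These 17 spanned percentiles 81.5 to 97.0 of all genes by mean level, a wider range than the core genes. Shfm1 and Adrm1, also 19S subunit genes, fall outside the symbol rule and were counted among the cofactors. Shfm1 stood at 290 FPKM in Prmt5cKO and 320 FPKM in control. Adrm1 stood at 44.4 FPKM in Prmt5cKO and 37.4 FPKM in control, and neither passed.

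Among the ATPases, which form the ring that unfolds substrates, Psmc3 was the highest, at 153 FPKM in Prmt5cKO and 184 FPKM in control. Psmc2 was the lowest, at 62.8 FPKM in Prmt5cKO and 61.4 FPKM in control. The other 4, Psmc1, Psmc4, Psmc5 and Psmc6, lay between 93.3% and 102.3% of control. The base scaffold gene Psmd2 stood at 161 FPKM in Prmt5cKO and 176 FPKM in control, and the other large base subunit gene Psmd1 at 70.3 FPKM in Prmt5cKO and 73.0 FPKM in control. Psmd4, a receptor for ubiquitin chains, stood at 117 FPKM in Prmt5cKO and 124 FPKM in control. All 3 base genes lay slightly below control and did not pass. Of all 11660 genes at or above the minimum level, 8144 also lay below control.

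The lid had the widest span of ratios of any class. Besides Psmd3, Psmd12 was also above control, at 63.1 FPKM in Prmt5cKO and 56.7 FPKM in control, without passing. Psmd8, at 102 FPKM in Prmt5cKO and 122 FPKM in control, and Psmd13, at 85.4 FPKM in Prmt5cKO and 101 FPKM in control, lay below control without passing. Psmd11, another lid subunit gene, stood at 30.7 FPKM in Prmt5cKO, the lowest 19S level in that genotype, and 36.0 FPKM in control, and did not pass. In control the lowest 19S gene was Psmd3. Psmd14, the enzyme that removes ubiquitin chains at the pore, was at 83.4 FPKM in Prmt5cKO and 84.0 FPKM in control. Psmd6 and Psmd7 stood at 94.2% and 91.9% of control and did not pass. Lid log2 ratios, computed as log2 of (FPKM + 1) in Prmt5cKO over control, ran from -0.26 to 0.33.

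**Figure D2:**
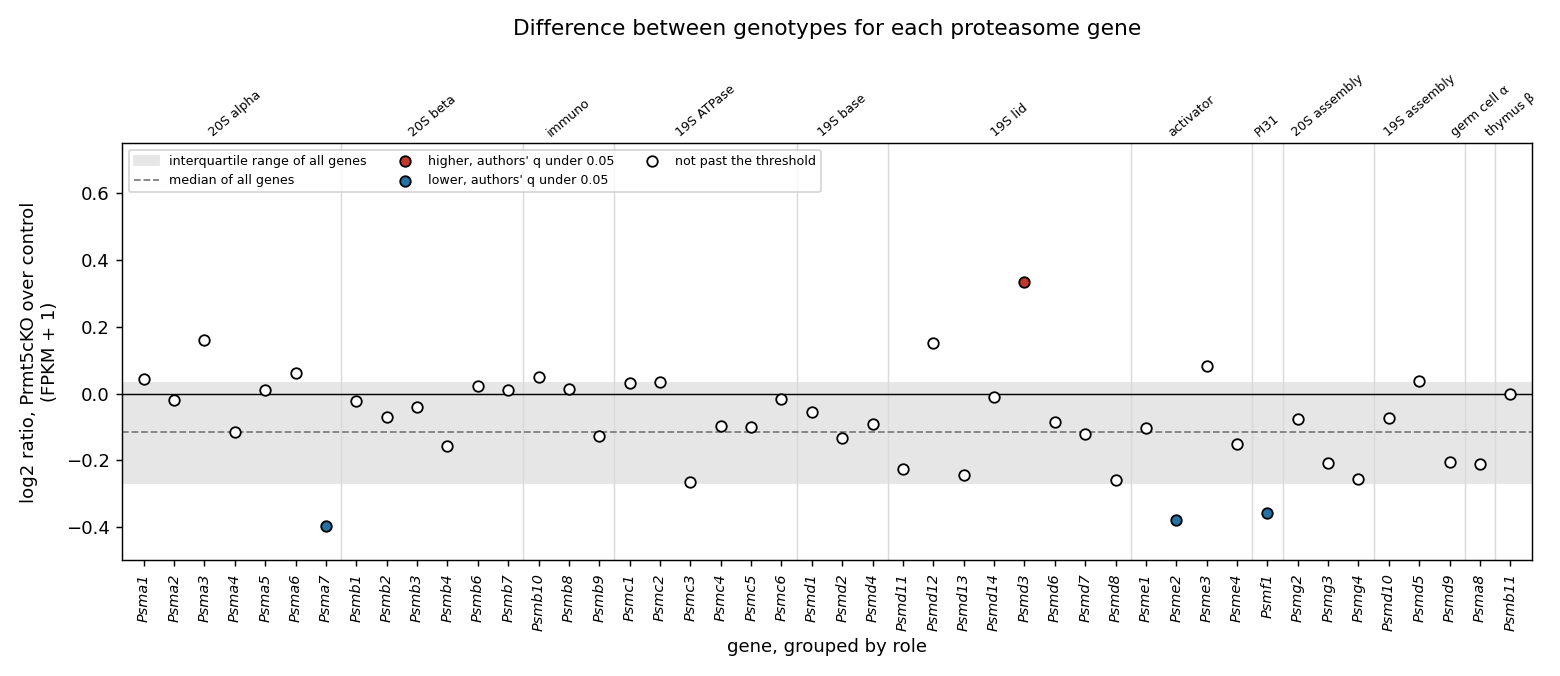
Log2 ratio of Prmt5cKO over control, on FPKM + 1, for each proteasome gene grouped by role; filled points passed the authors' q under 0.05, the band is the interquartile range of all genes and the dashed line their median of -0.12. Psmd3 lies above and Psma7, Psme2 and Psmf1 lie below the band. Several members that did not pass, Psma3 and Psmd12 among them, also lie above it.

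Among the activators, Psme2 was the one that changed. Psme1 encodes the partner of Psme2 in the PA28 ring, and it stood at 51.5 FPKM in Prmt5cKO and 55.4 FPKM in control. Psme1 was thus the higher of the pair in Prmt5cKO and Psme2 the higher in control. Psme3, which encodes the nuclear PA28 gamma, stood at 42.8 FPKM in Prmt5cKO and 40.4 FPKM in control. Psme4, which encodes the PA200 activator, stood at 46.1 FPKM in Prmt5cKO and 51.4 FPKM in control. Psme1, Psme3 and Psme4 did not pass. Over all tested genes 4.83% rose and 19.3% fell. A near-copy of Psme2, Psme2b, shares a row with other genes, so how reads were split between the copies is uncertain.

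None of the 6 assembly genes passed, beside 4.83% risen and 19.3% fallen over all tested genes. Among the chaperones of the alpha ring, Psmg4 stood at 31.8 FPKM in Prmt5cKO and 38.1 FPKM in control, and Psmg3, its partner, at 19.6 FPKM in Prmt5cKO and 22.9 FPKM in control. Psmg2 stood at 33.4 FPKM in Prmt5cKO and 35.3 FPKM in control. All 3 lay below control, with log2 ratios from -0.25 to -0.08, as did 8144 of all 11660 genes at or above the minimum level, whose median log2 ratio was -0.12. Psmg1, the partner of Psmg2, shares a row with Brwd1 that the authors did not test, so its own level cannot be read. Of the chaperones of the 19S base, Psmd5 stood at 46.4 FPKM in Prmt5cKO and 45.2 FPKM in control, while Psmd9 was at 85.9% of control. The X-linked Psmd10, also known as gankyrin, is the one X-linked member. Its level lay at 94.7% of control while Xist differed between the genotypes.

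Set against the whole table, the members sat close to the general shift. The median log2 ratio was -0.07 over the 42 members and -0.12 over all 11660 genes at or above the minimum level, of which 8.95% were not tested by the authors. Relative to the median of all genes, class medians were 0.13 for the alpha genes, 0.08 for the beta genes, 0.06 for the ATPases, 0.02 for the base, 0.01 for the lid, -0.01 for the activators and -0.02 for the 6 assembly genes. All genes with a mean of at least 30 FPKM had a median of -0.07, the same as the members to 2 decimals. Against that median the offsets were 0.09 for the alpha genes, 0.04 for the beta genes and 0.02 for the ATPases. They were -0.02 for the base, -0.03 for the lid and -0.05 for the activators. In each of these classes all genes reached this level. These are descriptions, and whether the classes differ was not tested. As deposited, 13 members lay above control and 29 below, beside 3516 above and 8144 below among all 11660 genes. After rescaling to the median ratio of all genes 29 lay above and 13 below, and after quantile normalization 22 above and 19 below. Rescaling adds the same 0.13 to every log2 ratio, so its counts follow from its construction, and no direction is given here for the members as a group. The ratios of Psmd3, Psma7, Psme2 and Psmf1 are further from 0 than this amount, so rescaling could not turn their signs.

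The ratios of the members also lay close together. Their interquartile range spanned 0.18 on the log2 scale, beside 0.30 for all genes. At a mean of at least 30 FPKM it was 0.16 for the 37 members that reached it and 0.26 for all genes at that level. Within 1.2-fold of a ratio of 1 lay 37 of 42 members (88.1%), beside 68.7% of all genes. At a mean of at least 30 FPKM it was 33 of 37 members (89.2%) beside 76.5% of all genes at that level. Whether the spread of the members is smaller than that of other genes was not tested.

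**Figure D3:**
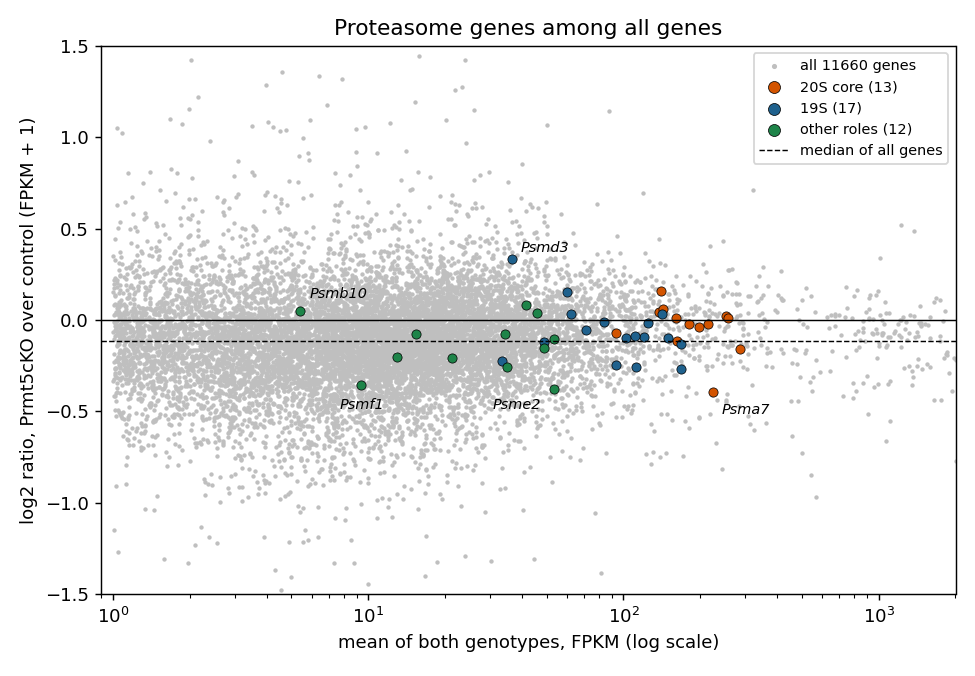
Log2 ratio of Prmt5cKO over control on FPKM + 1 against the mean FPKM of both genotypes (log scale), with all 11660 genes in grey and the 42 proteasome genes coloured by role; 41 genes lie outside the axes. The core and 19S genes sit at high levels, with median log2 ratios of -0.02 and -0.09, beside the dashed median line of all genes at -0.12.

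Other genes that work with the proteasome mostly did not pass the same threshold. Of 12 cofactors at or above the minimum level, 9 did not pass, 2 were not tested, 1 rose and none fell, beside 4.83% risen and 19.3% fallen over all tested genes. Uchl5, a deubiquitinase of the 19S, rose, at 16.1 FPKM in Prmt5cKO and 13.5 FPKM in control (log2 fold change 0.26 at q = 0.0128, from the authors' deposited table). Pomp, which guides beta subunits onto the half-built core, stood at 147 FPKM in Prmt5cKO and 149 FPKM in control. The median log2 ratio of the cofactors was -0.08, close to that of the members.

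Genes that control proteasome gene expression had 3 falls and no rise among 10, of which 3 (Ddi2, Syvn1 and Mafg) were read from rows shared with other genes and did not pass. Over all tested genes 19.3% fell and 4.83% rose, and whether the list differs from other genes was not tested. Their median log2 ratio was -0.12 over all 10 and -0.19 over the 7 with rows of their own. Ngly1, the enzyme that strips sugars from NFE2L1 on its way to activity, stood at 8.05 FPKM in Prmt5cKO and 11.4 FPKM in control, at -0.50 on the log2 scale (q = 0.0099) by the authors' deposited table. Sel1l, part of the complex that extracts proteins from the endoplasmic reticulum, stood at 14.6 FPKM in Prmt5cKO and 18.7 FPKM in control, at -0.36 on the log2 scale by the authors' deposited table. Keap1, the adaptor that marks NFE2L2 for degradation, stood at 15.8 FPKM in Prmt5cKO and 18.2 FPKM in control, with q = 0.0398 in the authors' deposited table. The transcription factor gene Nfe2l1, whose product raises proteasome genes when the proteasome is inhibited, stood at 19.7 FPKM in Prmt5cKO and 21.7 FPKM in control and did not pass. Nfe2l2 stood at 9.47 FPKM in Prmt5cKO and 10.3 FPKM in control and did not pass. Nfe2l1 was at 91.1% and Nfe2l2 at 91.6% of control.

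Among 17 genes for ubiquitin and its delivery, 1 of them read from a shared row, 2 fell and none rose, and the median log2 ratio was -0.01. The fallen share was 11.8%, beside 19.3% of all tested genes. Uba1, the X-linked main ubiquitin-activating enzyme gene, fell. It stood at 122 FPKM in Prmt5cKO and 153 FPKM in control (q = 0.0076 in the authors' deposited table). Ubb, a polyubiquitin gene, shares its row with Gm1821. That row fell, at 719 FPKM in Prmt5cKO and 870.1 FPKM in control (log2 fold change -0.28 at q = 0.0054, from the authors' deposited table). Rps27a, a ubiquitin fusion gene, was at 100.9% of control. Of 10 genes for antigen processing and interferon response, 1 of them read from a shared row, 9 did not pass and the one call was the rise of Tap1. The median log2 ratio of these 10 was -0.09. Over all tested genes 4.83% rose and 19.3% fell.

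**Figure D4:**
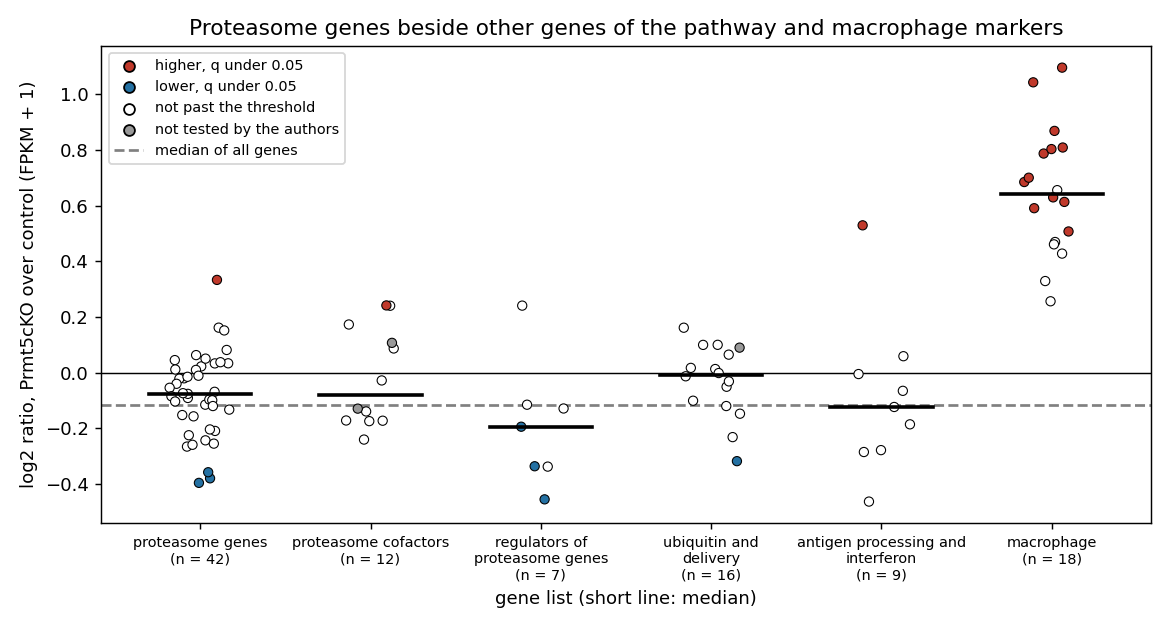
Log2 ratio of Prmt5cKO over control on FPKM + 1 for the 42 proteasome genes, 4 lists of other pathway genes with rows of their own and 18 macrophage markers, each point a gene and each short line a median; colours give the authors' calls. The proteasome genes and their cofactors centre at -0.07 and -0.08, and the macrophage markers centre at 0.64.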

How the data were processed

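RNA was measured in 2 Prmt5cKO and 3 control forelimb samples, grouped by the sample titles. The build mm10 and the tools Cufflinks 2.1.1, Bowtie2 2.1.0 and TopHat2 2.0.10 come from the submitters' processing notes, which give no roles or settings. Per the file headers, the authors deposited 1 FPKM per genotype for each of 28092 rows, a log2 fold change (Prmt5cKO over control) and a q-value (an adjusted p-value). Their test is not stated. The deposited log2 fold changes differed from the log2 ratio of the FPKM by at most 1.3e-05. Rows with a fold of 0 and a q of 1 were taken as untested. The shorter deposited table, of 208 rows, names none of the members.

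Rows that name no gene (15.5%, holding 2.08% of the FPKM in Prmt5cKO and 1.94% in control) and 597 rows of several genes were left out, and the row with the highest mean was kept per symbol. A gene was called at a mean of at least 1 FPKM and an authors' q under 0.05, adjusted by the authors over their table. Log2 ratios used a pseudocount of 1 FPKM, which understates changes of low genes. Because values per sample were not in hand, no test over replicates was run. The counting and ratio steps were tested on simulated data. All 46 members could be named. Of the other pathway lists, called genes, Pomp, Nfe2l1 and Ubb were named, and values of further genes were chosen after they were seen. Not every called gene among the cell type and sex-linked markers was named. The members and lists were chosen with earlier results of these data known, and 2 of the 3 motifs after seeing the data. Genes were placed with GENCODE M21; 12 members have exons that overlap another gene's. Python 3.11.15, pandas 2.3.3, numpy 2.4.6 and matplotlib 3.10.9 were used.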

Additional observations from a re-analysis of the deposited data

How the results depend on the processing

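At an authors' q under 0.01 no member rose and 1 fell (Psma7), and with at least 1.5-fold as well as a q under 0.05 the counts were 0 risen and 0 fallen; the stricter limits themselves remove these calls. Counts at unadjusted p are not given, since the authors' q is already adjusted. The counts of 1 risen and 3 fallen were otherwise within 1.5 times under a q under 0.1, no minimum level, a minimum of 5 FPKM, every row of a repeated symbol, and a minimum of 30 FPKM chosen after seeing the data. No member symbol had a repeated row and all 42 members reached 5 FPKM, so those settings could not change the counts. The median log2 ratio of the members, -0.07, was 0.0502 after rescaling by the median ratio of all genes and 0.0072 after quantile normalization, because both move the centre of all genes. Under the other 7 settings it moved by at most 0.05. Of these, summing repeated rows, leaving out untested rows and a minimum of 5 FPKM could not move it. They left the same members and values. Rescaling adds one amount, 0.13, to every log2 ratio, which is less than the size of the 4 changed members' ratios, so their kept signs say nothing of stability. Of the 42 others, which include the 4 members under the minimum level, 17 changed sign after rescaling. After quantile normalization 8 changed sign or went to 0, the latter being Psmc6 and Psmg2. No paired analysis was possible because the files used here hold 1 value per genotype, and leaving out each replicate could not be run for the same reason. Sequencing depth is unknown, so what it limits cannot be given; the values of Psmb8, Psmb9, Psma8 and Psmb11, below 1 FPKM, carry no error.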
